A study of Mus musculus with 2 samples.

Results

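Imprinted genes are expressed mainly or only from the allele inherited from one parent. The genes described here are 47 imprinted mouse genes outside the Igf2 axis (Igf2 itself, its receptors and its binding proteins), chosen by symbol and grouped by the cluster they lie in and by the parental allele from which they are known to be expressed. Of the 47 symbols, 46 had a row in the tables of 43346 mouse genes. Peg13 is not analysed here. Of these 46 genes, 22 are known for paternal expression, 23 for maternal expression, and Gnas has promoters of both kinds. The alleles are textbook knowledge, mostly from crosses between mouse strains. The present values are total RNA levels and do not separate the alleles.

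The study measured total RNA of whole limb from embryos of strain B6NCrl at 15.5 days, male and female pooled. There was 1 group with 2 biological replicates, replicate 1 from 78 embryos and replicate 2 from 62 embryos, and no treatment or mutant. All levels are therefore set within a library or between the replicates, and no test between conditions exists. RNA longer than 200 nt was kept, and 10 ng entered each library. The mean and SD of 2 pools describe these pools and carry little precision, and with pooled tissue fewer cells of a type and less RNA per cell cannot be told apart.

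Imprints are set as DNA methylation in the germ line of one parent and are carried through development at differentially methylated regions. Such a region can silence a promoter directly, as at Mest and Peg3, or can act at a distance through a long noncoding RNA transcribed from the unmethylated allele, as Kcnq1ot1 and Airn do. Paternally expressed genes often promote fetal growth (Dlk1, Mest, Peg3, Plagl1), and maternally expressed genes often restrain it (Cdkn1c, Grb10, Phlda2, H19). Many of these genes are abundant in fetal mesoderm and decline after birth. For some members imprinting is known only from certain tissues, among them Ube3a in neurons, Trappc9 and Kcnk9 in brain, and Ascl2, Cd81 and Tssc4 in placenta.

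Several clusters hold small RNAs whose hosts are among the genes measured here, and mature sequences are shown for the miRNAs opposite Rtl1, which have sites in it, and for those of abundant hosts. Small RNAs themselves lie under the length limit of these libraries and were not measured. Rtl1 is a paternally expressed gene derived from a retrotransposon, and 11 mature miRNAs of RefSeq (GRCm38.p6) lie on its opposite strand. Each of the 11 has 1 site of full complementarity in the Rtl1 transcript, and no seed is shared among them. The sequences below run 5′ to 3′ with the seed, bases 2 to 8, in capitals; the first 5 lie opposite Rtl1 on chromosome 12, the next pair comes from H19 on chromosome 7 and the last from Mest on chromosome 6.
mmu-miR-127-3p: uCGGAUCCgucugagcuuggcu
mmu-miR-136-5p: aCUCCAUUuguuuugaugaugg
mmu-miR-431-5p: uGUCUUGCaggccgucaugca
mmu-miR-433-3p: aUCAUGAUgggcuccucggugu
mmu-miR-434-3p: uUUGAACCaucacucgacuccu
mmu-miR-675-5p: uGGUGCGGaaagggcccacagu
mmu-miR-675-3p: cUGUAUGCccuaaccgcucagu
mmu-miR-335-5p: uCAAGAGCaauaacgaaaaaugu
RefSeq also placed 26 mature miRNAs with 25 different seeds on the strand of Mirg, 6 on that of Rian, 3 on that of Meg3, 4 on that of Calcr, and 2 each on those of H19, Mest, Rtl1 and Usp29. The only seed held by more than 1 miRNA of Mirg belonged to these:
mmu-miR-453: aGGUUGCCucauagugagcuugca
mmu-miR-496a-5p: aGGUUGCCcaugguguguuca

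Promoter sequences are shown for the genes whose start sites are compared further on. Each line is the 250 bases before a RefSeq start (GRCm38.p6, strand of the gene), with every CpG, the base pair at which imprints are methylated, in capitals. Gnas has separate starts for a neuroendocrine secretory protein (Nesp), for the noncoding exon 1A transcript and for the stimulatory G protein α subunit (Gsα). The Mest lines are the upstream start and the start of the paternally expressed transcript. The Grb10 lines are the outer and an inner start, and the last line is the Meg3 start.
Gnas, Nesp start (chr2:174284070-174284319, plus strand): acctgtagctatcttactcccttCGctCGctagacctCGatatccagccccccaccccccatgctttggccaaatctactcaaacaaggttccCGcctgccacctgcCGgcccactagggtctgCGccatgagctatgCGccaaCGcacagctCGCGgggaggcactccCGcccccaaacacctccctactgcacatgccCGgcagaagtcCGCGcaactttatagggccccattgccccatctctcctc
Gnas, exon 1A start (chr2:174327518-174327767, plus strand): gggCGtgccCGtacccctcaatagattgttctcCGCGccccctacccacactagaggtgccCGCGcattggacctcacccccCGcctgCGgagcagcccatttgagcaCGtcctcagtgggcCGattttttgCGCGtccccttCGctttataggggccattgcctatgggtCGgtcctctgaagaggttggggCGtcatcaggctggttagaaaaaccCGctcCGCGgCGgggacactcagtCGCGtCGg
Gnas, Gsα start (chr2:174329756-174330005, plus strand): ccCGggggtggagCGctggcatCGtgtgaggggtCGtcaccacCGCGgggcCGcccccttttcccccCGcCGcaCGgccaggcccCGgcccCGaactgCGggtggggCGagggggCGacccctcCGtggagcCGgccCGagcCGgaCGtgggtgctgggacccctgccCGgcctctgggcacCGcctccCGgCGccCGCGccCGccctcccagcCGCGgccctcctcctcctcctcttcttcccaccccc
Mest, upstream start (chr6:30733256-30733505, plus strand): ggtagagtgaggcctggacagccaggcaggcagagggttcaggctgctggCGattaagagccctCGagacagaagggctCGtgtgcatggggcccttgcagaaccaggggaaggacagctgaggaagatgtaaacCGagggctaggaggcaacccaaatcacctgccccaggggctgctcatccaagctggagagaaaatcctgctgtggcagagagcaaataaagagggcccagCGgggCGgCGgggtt
Mest, start of the paternally expressed transcript (chr6:30737800-30738049, plus strand): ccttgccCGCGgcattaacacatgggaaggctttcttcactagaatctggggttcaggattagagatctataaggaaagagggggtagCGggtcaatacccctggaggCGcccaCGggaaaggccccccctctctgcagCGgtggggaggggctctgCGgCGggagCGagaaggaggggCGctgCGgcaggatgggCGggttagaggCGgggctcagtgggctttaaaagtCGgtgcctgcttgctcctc
Grb10, outer start (chr11:12037421-12037670, minus strand): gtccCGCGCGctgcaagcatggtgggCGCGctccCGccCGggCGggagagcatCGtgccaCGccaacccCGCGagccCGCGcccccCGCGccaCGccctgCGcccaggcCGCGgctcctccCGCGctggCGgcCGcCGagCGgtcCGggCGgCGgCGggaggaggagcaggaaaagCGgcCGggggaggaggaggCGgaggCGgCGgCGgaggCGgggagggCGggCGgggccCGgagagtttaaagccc
Grb10, inner start (chr11:12027972-12028221, minus strand): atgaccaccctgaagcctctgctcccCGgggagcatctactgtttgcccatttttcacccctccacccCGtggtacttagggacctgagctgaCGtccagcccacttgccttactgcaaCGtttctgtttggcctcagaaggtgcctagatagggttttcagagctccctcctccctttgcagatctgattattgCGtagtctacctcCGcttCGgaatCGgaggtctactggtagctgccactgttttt
Meg3 (chr12:109540746-109540995, plus strand): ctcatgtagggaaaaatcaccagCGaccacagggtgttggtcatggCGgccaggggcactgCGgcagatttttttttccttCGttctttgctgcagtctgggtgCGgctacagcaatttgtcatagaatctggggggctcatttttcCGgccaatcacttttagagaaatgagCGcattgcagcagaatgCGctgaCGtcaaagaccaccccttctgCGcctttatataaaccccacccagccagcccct
The number of CpGs in these stretches was 14, 22 and 29 for the Gnas starts, 7 and 14 for the Mest starts, 40 and 8 for the Grb10 starts and 10 for Meg3. Among the stretches shown for Gnas, Mest and Grb10, the one with most CpGs lay before the start with the highest measured level. Annotated starts without a RefSeq window, as that of Grb10 at 12026732 (0 and 5.5 TPM in replicates 1 and 2), were not compared. The match of CpGs and level did not hold for every member with several RefSeq starts. In windows that run on to 50 bases after the start, Asb4 had 6 CpGs at 20.5 and 15.2 TPM in replicates 1 and 2. Its other window had 8 CpGs at 3.57 and 2.35 TPM. Ppp1r9a had 48 CpGs at 2.99 and 3.17 TPM, and 10 CpGs at 3.83 and 3.32 TPM.

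Each library held 35104685 and 41757268 expected counts in replicates 1 and 2, of which spike-ins took 2.28% and 2.26%. For a gene at 0, the limit that a count of 0 allows, 3 counts, was 0.0875 CPM for replicate 1 against 0.0735 CPM for replicate 2 (library-scaled counts), and it covers counting error only. The tissue label was checked against marker lists. Markers of limb mesenchyme (12 of 12 genes averaging 1 TPM or more), cartilage (12 of 12), sarcomeres (20 of 20) and epidermis (10 of 10) were present, and 1 of 8 placental markers averaged 1 TPM or more, Plac1 with 9.61 TPM in replicate 1 against 9.19 TPM in replicate 2. The defining placental markers Prl3d1 and Tpbpa were at 0 in both libraries, and the other 5 averaged under 1 TPM. The pools differed in composition. The 20 sarcomere genes summed to 12079 TPM in replicate 1 against 3942 TPM in replicate 2, and all 20 were higher in replicate 1 (median 2.77-fold). The liver and yolk sac markers summed to 42.3 TPM in replicate 1 against 101.8 TPM in replicate 2, and all 7 of them that averaged 1 TPM or more were higher in replicate 2. Of the 12 limb mesenchyme markers, 9 were higher in replicate 2 (4 of them over 1.5-fold), with a median of 0.727-fold in replicate 1 over replicate 2. Of the 10 erythroid markers averaging 1 TPM or more, 9 were higher in replicate 2 (5 of them over 1.5-fold). The part of these differences in any result below was not tested.

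Most of the imprinted genes were detected at appreciable levels in the limb. Of the 46 genes, 42 reached 1 TPM (a level scaled to transcript length and library size) in both libraries, which is 91.3% against 34.6% of all 43346 genes. At 10 TPM the count was 30 (65.2% against 21.3% of all genes), and at 100 TPM it was 15 (32.6% against 3.69%). Gnas and Mest exceeded 1000 TPM in both libraries, as did 97 genes in all. Together the 46 genes held 10505 TPM in replicate 1 against 9096 TPM in replicate 2, or 1.11% and 0.959% of all gene TPM. The 10 highest held 85.2% and 83.8% of that sum. The median of the 46 genes was 26.5 TPM. All 43346 genes include short RNAs under the length limit and pseudogenes, kinds not among the members, so the shares above are not set against like genes. Among genes averaging 1 TPM or more, the median was 28.6 TPM for the 43 members and 15.8 TPM for all 15571 genes.

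**Figure D1:**
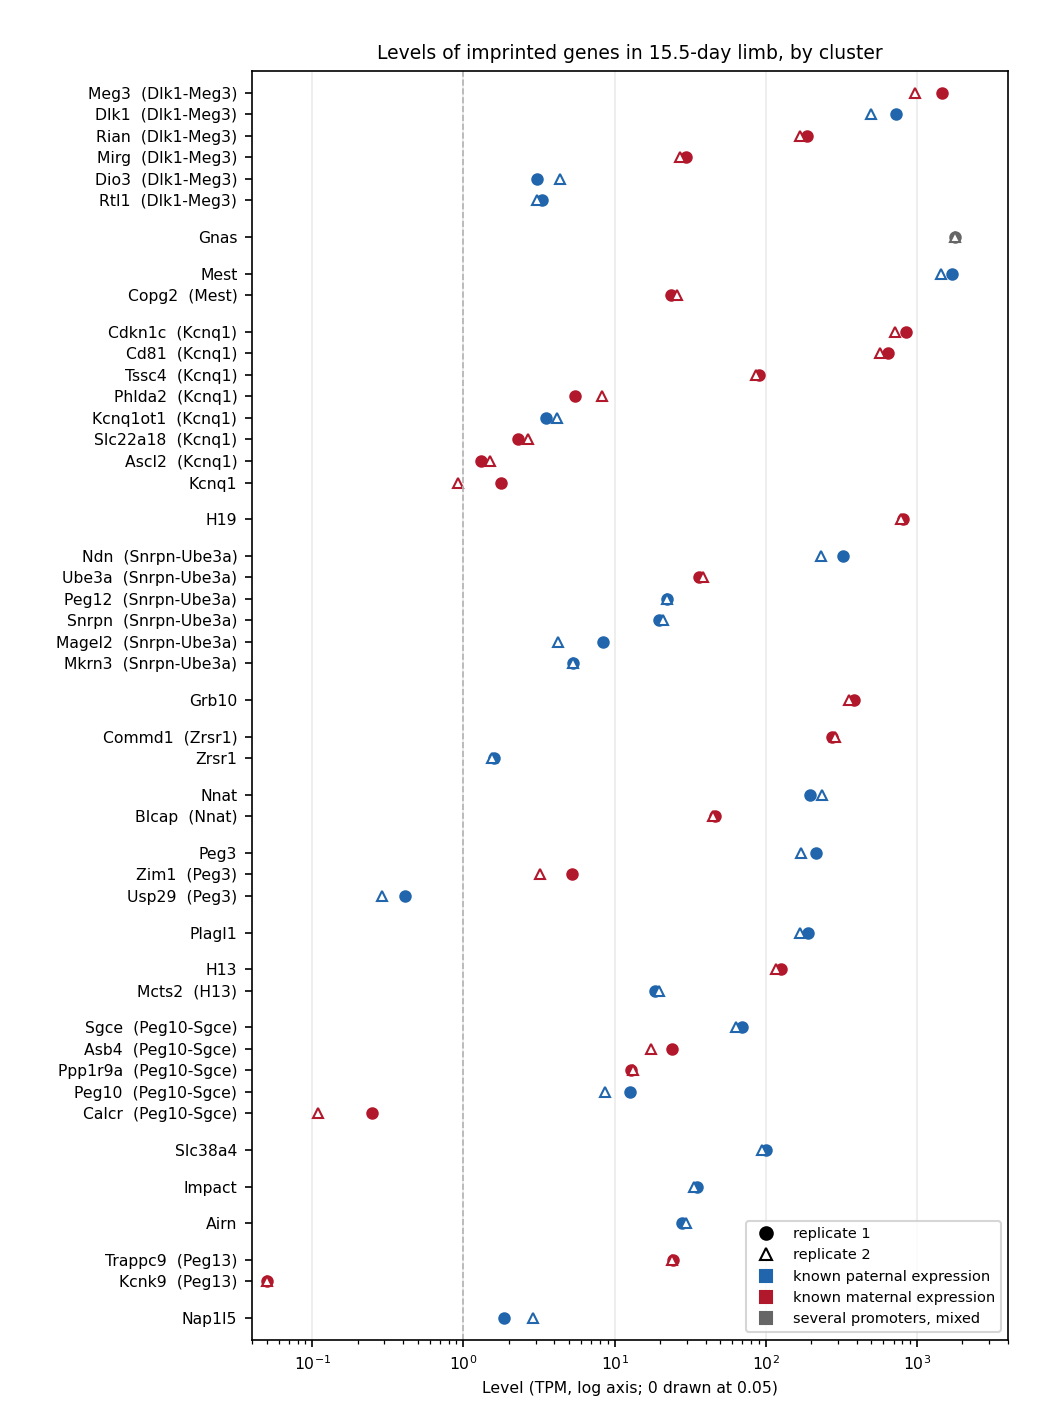
Level of each imprinted gene in TPM on a log axis, grouped by cluster with the cluster of highest summed level at the top. Filled circles are replicate 1 and open triangles replicate 2; blue marks known paternal and red known maternal expression, and the dashed line is 1 TPM. Levels within a cluster spread widely, as from Meg3 to Rtl1, and Calcr, Usp29 and Kcnk9 lie under 1 TPM in both libraries.

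The order of the levels was led by Gnas at 1784 ± 14.3 TPM (SD, n = 2, as in all values with ±), followed by Mest at 1570 ± 178, Meg3 at 1214 ± 340, H19 at 794 ± 20.9, Cdkn1c at 784 ± 94.5, Dlk1 at 613 ± 163 and Cd81 at 606 ± 53.8 TPM. Neighbours in the order were called separated where the lower value of the higher gene exceeded the higher value of the lower gene. Of 45 neighbouring pairs, 24 were separated. Gnas stood above Mest and Meg3 above H19 in this sense. The ranges of Mest and Meg3 overlapped, as did those of H19 and Cdkn1c, Cdkn1c and Dlk1, and Dlk1 and Cd81. Another group whose neighbours were not separated ran over Commd1, Ndn, Nnat, Peg3, Plagl1 and Rian, with means between 279 and 178 TPM.

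The Dlk1-Meg3 cluster on chromosome 12 had the highest summed level, 2407 TPM in replicate 1 against 1675 TPM in replicate 2. Its paternal allele expresses the proteins Dlk1, Rtl1 and Dio3, and its maternal allele expresses a chain of noncoding RNAs, Meg3, Rian and Mirg, that host miRNAs and small nucleolar RNAs. Dlk1 (chr12:109452823-109463336, plus strand), a transmembrane protein with EGF-like repeats that restrains the differentiation of fat precursors, had 728 TPM in replicate 1 against 497 TPM in replicate 2. Meg3 (chr12:109541001-109571726, plus strand) had 1455 TPM and 974 TPM, or 44730 and 39975 counts. Both genes were higher in replicate 1, Dlk1 by 0.53 and Meg3 by 0.56 on the log2 scale after centring on the median gene, just under the 1.5-fold limit used below. Their ratio hardly moved: with 0.1 TPM added to both, log2 of Dlk1 over Meg3 was -0.998 for replicate 1 and -0.969 for replicate 2.

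The noncoding RNAs of the maternal allele differed widely in level, Meg3 being the highest, Rian next and Mirg the lowest of these 3 in both libraries. The Rian gene begins 62.9 kb after the Meg3 start and had 187 and 169 TPM in replicates 1 and 2. Mirg begins 188.8 kb after the Meg3 start and had 29.8 and 27.0 TPM. These distances are to the outer annotated starts, which held little of the level. Their shares were 1.51% and 0.449% of Rian and 3.63% and 3.97% of Mirg in replicates 1 and 2. Meg3 exceeded Rian 7.76-fold and 5.74-fold in replicates 1 and 2, and Rian exceeded Mirg 6.28-fold and 6.26-fold. The step between Rian and Mirg was thus nearly the same in both libraries, while that between Meg3 and Rian was larger in replicate 1. The 3 genes lie on the same strand. The level did not fall steadily along the domain, since the noncoding rows Gm37899 (4.98 and 4.85 TPM) and B830012L14Rik (5.17 and 4.82 TPM), on that strand between Rian and Mirg, lay under Mirg.

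The proteins of the paternal allele other than Dlk1 were low. Rtl1 had 3.30 TPM in replicate 1 against 3.07 TPM in replicate 2 (461 and 524 counts). Dio3, the deiodinase that inactivates thyroid hormone, had 3.06 and 4.34 TPM (131 and 198 counts) and was 1.43-fold higher in replicate 2. With 0.1 TPM added to both sides of each ratio, here and for all ratios between genes, Dlk1 exceeded Rtl1 214-fold and 157-fold in replicates 1 and 2. Neither the level of the miRNAs printed above nor cleavage at their sites was measured. Of the 6102 windows of 100 nt of Rtl1, 25 were shared with an annotated gene on the other strand, Mir433 (124 nt). The other genes annotated there, miRNAs of 70 to 94 nt, are too short to hold such a window. The count therefore sets no limit on reads of the other strand counted for Rtl1, as the use of strand is not given.

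**Figure D2:**
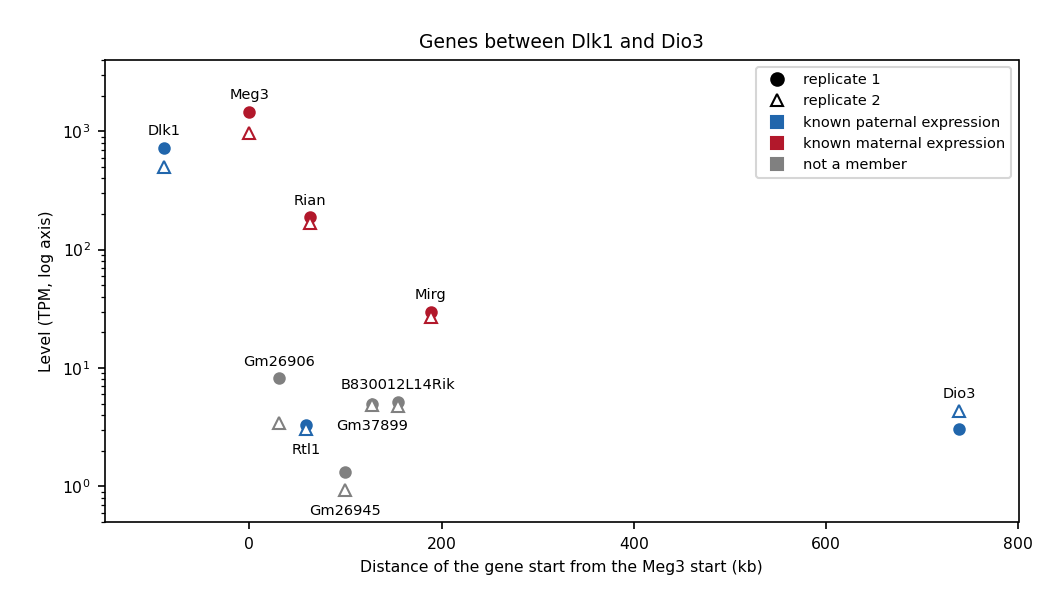
Level in TPM (log axis) of each gene averaging 1 TPM or more between Dlk1 and Dio3, against the distance of its outer annotated start from the Meg3 start in kb. Circles are replicate 1 and triangles replicate 2. Meg3, Rian and Mirg are the 3 highest noncoding rows, lower ones lie between Rian and Mirg, and the paternally expressed Rtl1 and Dio3 lie at 3.06 to 4.34 TPM.

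Gnas (chr2:174284320-174346744, plus strand), read as a whole, differed little between the libraries, with 1794 TPM in replicate 1 against 1773 TPM in replicate 2. Its start sites did differ. Gsα, which couples hormone receptors to cyclic AMP and is expressed from both alleles in most tissues, had 1412 TPM in replicate 1 against 1540 TPM in replicate 2 from its cluster of starts, 78.7% and 86.9% of the gene. The Nesp start, known for maternal expression, had 272 TPM and 150 TPM, 15.2% and 8.47% of the gene. The Nesp start was thus 1.81-fold higher in replicate 1, while the Gsα starts were slightly higher in replicate 2.

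Starts known for paternal expression made up a small share of Gnas. The exon 1A starts had 53.6 TPM in replicate 1 against 42.8 TPM in replicate 2, or 2.99% and 2.41% of the gene. The start of XLαs, the extra-large form of Gsα, had 35.4 and 20.3 TPM, or 1.97% and 1.15%. Both were higher in replicate 1. For the leading Nesp transcript the deposited intervals of assignment were 253 to 266 TPM in replicate 1 and 140 to 149 TPM in replicate 2 and did not overlap. On the other strand at Nesp, the noncoding Nespas row had 8.26 and 6.23 TPM. Gm20721, opposite Gnas over 16394 nt, had 51.2 and 34.99 TPM. Gm27869, a short row on the strand of Gnas, had 39.4 and 21.2 TPM. The part of these overlapping rows in the start shares was not tested.

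Mest (chr6:30723547-30748465, plus strand), a protein of the α/β hydrolase family used as a marker of embryonic mesoderm, had 1696 TPM in replicate 1 against 1444 TPM in replicate 2 (90315 and 93619 counts). Almost all of it, 98.5% and 98.2%, was assigned to the start of the known paternally expressed transcript (30738050), whereas the start nearest to the upstream RefSeq window had 0.18 and 0.30 TPM. Copg2, a coat protein subunit whose last part overlaps Mest on the other strand by 912 nt, had 23.5 and 25.9 TPM. Of the 100-nt windows of Copg2, 15.0% were shared with Mest. Whether strand was recorded is not given in the sources used here, so reads of the abundant Mest in that overlap cannot be told apart from those of Copg2. Mest over Copg2 was 6.17 and 5.80 on the log2 scale.

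The Kcnq1 cluster on chromosome 7 spanned 581-fold between its highest and lowest mean. Its silencing RNA, Kcnq1ot1, is transcribed from the paternal allele inside the Kcnq1 gene, and its protein genes are known for maternal expression. Cdkn1c (chr7:143458339-143461050, minus strand), an inhibitor of cyclin-dependent kinases needed for normal cartilage differentiation, had 851 TPM in replicate 1 against 717 TPM in replicate 2, 53.2% and 51.6% of the cluster. Cd81, a tetraspanin of the cell surface, had 644 and 568 TPM. Tssc4 had 89.9 and 86.3 TPM, and 5.95% of its windows were shared with genes on the other strand, most often Trpm5 (19.4 and 18.3 TPM). These 3 genes made up nearly all of the cluster's level.

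The other genes of the cluster were low. Phlda2, which restrains placental growth, had 5.45 TPM in replicate 1 against 8.25 TPM in replicate 2 (80 and 148 counts). Slc22a18, a transporter of the organic cation family, had 2.29 and 2.68 TPM, and Ascl2, a transcription factor of the trophoblast, had 1.31 and 1.49 TPM. Kcnq1, a potassium channel subunit, had 1.78 and 0.92 TPM on 71.5 and 58.3 counts. For Kcnq1 the deposited interval, 1.87 to 5.16 TPM in replicate 1 and 1.14 to 3.62 TPM in replicate 2, lay above the deposited TPM itself in both libraries, and the intervals overlapped, so its level was poorly fixed.

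Kcnq1ot1 shows how much the unit matters. It had 3.53 TPM in replicate 1 against 4.14 TPM in replicate 2, under Phlda2, yet 6640 and 9517 counts, since its listed length is 84395 nt. By TPM, log2 of Kcnq1ot1 over Cdkn1c was -7.87 for replicate 1 and -7.40 for replicate 2. Its opposite-strand overlap with Kcnq1 covers 93092 nt of the locus, mostly intron, and at most 0.731% of the windows of Kcnq1 transcripts.

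H19 (chr7:142575529-142578143, minus strand), the maternally expressed noncoding RNA that hosts the miR-675 pair above, had 809 TPM in replicate 1 against 779 TPM in replicate 2. It was among the most even of the abundant genes, 1.02-fold apart. Its transcripts were assigned less evenly: the leading one differed between the libraries, with 41.9% of the gene in replicate 1 and 40.7% in replicate 2. Grb10 (chr11:11930508-12038683, minus strand), an adaptor that dampens insulin and growth factor receptors, had 381 and 353 TPM. Its outer start, before which 40 CpGs lie, held 95.6% and 93.3% of the gene, and the inner start shown above held 3.50% and 4.17%. Plagl1 (chr10:13060504-13131694, plus strand), a zinc finger factor known for paternal expression and for regulating other imprinted genes, had 190 and 167 TPM, with 98.7% and 98.0% from its leading start.

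**Figure D3:**
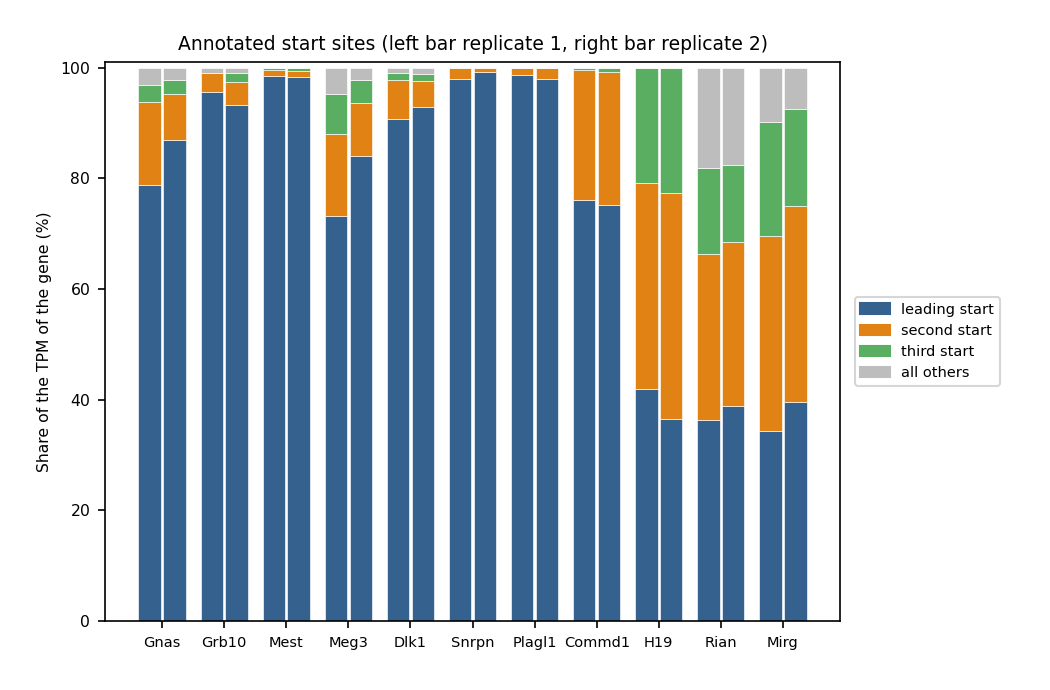
Share of each gene's TPM assigned to its annotated start sites, starts within 200 nt being joined, in % (bars begin at 0). For each gene the left bar is replicate 1 and the right bar replicate 2. Gnas, Grb10, Mest, Dlk1, Snrpn and Plagl1 draw most of their level from 1 start, whereas H19, Rian and Mirg are split over several.

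Start sites were compared over all members with more than 1. Of 25 such genes averaging 1 TPM or more, 16 had a leading start with over 80% of the gene in both libraries. The transcripts showed a like picture. Of 31 genes with at least 2 transcripts, 28 had the same leading transcript in both libraries and 24 had one that held over 50% in both. The 7 that did not were the noncoding RNAs Airn, H19, Mirg and Rian and the protein genes Commd1, Peg10 and Ppp1r9a. The same shares were not computed over all genes, so these counts cannot be read as particular to imprinted genes. At Meg3 the leading start held 73.1% in replicate 1 and 84.1% in replicate 2 (1064 and 819 TPM), and the second highest start, further in, had 217 and 91.8 TPM. Transcripts of a noncoding locus that overlap widely are assigned from few distinguishing reads, and the share of these differences due to assignment was not tested. Assignment was also loose at the protein gene Ascl2, counted above with 100% from its leading start and transcript. The deposited intervals of both its transcripts began near 0 and reached 1.29 and 1.35 TPM in replicate 1, so that share was not fixed.

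The Snrpn-Ube3a cluster on chromosome 7, the mouse counterpart of the Prader-Willi and Angelman region, summed to 414 TPM in replicate 1 against 324 TPM in replicate 2. Ndn (chr7:62346569-62350262, plus strand), a MAGE family protein that restrains the cell cycle and is expressed from the paternal allele, had 322 and 233 TPM and made up 77.9% and 71.8% of that sum. Its relative Magel2, also paternal, had 8.40 and 4.20 TPM (855 and 523 counts). The deposited intervals of Magel2 were 7.65 to 8.74 TPM in replicate 1 and 3.77 to 4.48 TPM in replicate 2. At 1.95-fold after centring, Magel2 had the largest difference between libraries among the 43 genes of this set that averaged 1 TPM or more.

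The other members of that cluster differed little between the libraries. Peg12, of a family that binds GSK3, had 22.1 TPM in replicate 1 against 22.3 TPM in replicate 2. Snrpn, a spliceosomal protein, had 19.8 and 20.9 TPM, and the Snurf row that overlaps it on the same strand had 19.03 and 13.6 TPM, and 16.7% of the windows of Snrpn are shared on that strand, mostly with Gm38393, so its level is uncertain. Mkrn3, a makorin ring finger protein, had 5.27 and 5.33 TPM. Ube3a, the ubiquitin ligase known for maternal expression in neurons, had 36.0 and 38.6 TPM. Of 12 neuronal markers, 8 reached a mean of 1 TPM, and the 12 summed to 88.5 TPM in replicate 1 against 93.5 TPM in replicate 2. The highest was Gap43, a growth cone protein, with 40.5 and 36.6 TPM, and Rbfox3, a marker of mature neurons, had 0.28 and 0.21 TPM; both were chosen after their values were seen.

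In the Peg3 cluster on chromosome 7, Peg3 (chr7:6703892-6730431, minus strand), a large zinc finger protein of the paternal allele, had 217 TPM in replicate 1 against 171 TPM in replicate 2. Usp29 is transcribed from the same region in the other direction and had 0.41 and 0.29 TPM (23 and 20 counts). Peg3 exceeded Usp29 425-fold and 439-fold. The Usp29 transcript measured starts at 6961160, far from the Peg3 start at 6730421, and the RefSeq start of Usp29 at 6730583, close to Peg3, had no level of its own. Zim1, a maternally expressed zinc finger gene, had 5.22 and 3.20 TPM and was 1.59-fold higher in replicate 1. The single annotated Usp29 transcript shares 96.7% of its windows with genes on the other strand, most often Zim3, so its few reads are uncertain.

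The Peg10-Sgce cluster on chromosome 6 has a pair of paternally expressed genes that start next to each other in opposite directions. Sgce, the ε-sarcoglycan of the membrane complex that links to dystrophin, had 70.0 TPM in replicate 1 against 63.7 TPM in replicate 2. Peg10, derived from a retrotransposon and needed in placenta, had 12.7 and 8.68 TPM. Of the maternal neighbours, Asb4 had 24.1 and 17.5 TPM, Ppp1r9a, which binds actin and a protein phosphatase, had 12.8 and 13.2 TPM, and Calcr, the calcitonin receptor, had 0.25 and 0.11 TPM on 19 and 10 counts. Sgce was the highest of these genes and Calcr the lowest in both libraries.

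Several members arose as retrogenes, intronless copies placed inside another gene. Mcts2, paternally expressed from an intron of H13, had 18.6 TPM in replicate 1 against 19.8 TPM in replicate 2, and its source gene Mcts1 had 77.4 and 89.8 TPM. H13, a signal peptide peptidase, had 126 and 117 TPM. Zrsr1, inside Commd1, had 1.60 and 1.54 TPM, its source Zrsr2 had 49.4 and 47.1 TPM and Commd1 had 272 and 286 TPM. Nap1l5, inside Herc3, had 1.85 and 2.88 TPM, under its relatives Nap1l4 (163 and 155 TPM) and Nap1l1 (134 and 151 TPM). In these 3 cases the imprinted copy was the lower one. In contrast Peg12 stood above its relatives Frat1 (0.19 and 0.31 TPM) and Frat2 (1.83 and 1.82 TPM).

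Among the ring finger and MAGE proteins the relatives were again higher. Mkrn1 had 40.1 TPM in replicate 1 against 48.8 TPM in replicate 2, Mkrn2 had 29.0 and 25.3 TPM, and Mkrn3 lay below both. Maged1 had 620 and 594 TPM, above Ndn and Magel2. No run of 100 nt was shared between Mcts2, Nap1l5, Peg12, Mkrn3, Ndn or Magel2 and a gene outside the members on the same strand. None was shared with any other gene on the opposite strand. Runs shared between members on the same strand, as between Mcts2 and H13, were not counted. Zrsr1 shared 4.94% of its windows with genes on the other strand, most often Commd1. As the use of strand is not given, reads of the more abundant Commd1 there cannot be told apart from those of Zrsr1. The low level of Zrsr1 and its ratio to Commd1 are therefore uncertain. Matches shorter than 100 nt were not examined.

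The remaining clusters hold a pair of members each or a lone gene. Nnat, neuronatin, a small membrane protein of the paternal allele that lies in an intron of the maternally expressed Blcap, had 197 TPM in replicate 1 against 235 TPM in replicate 2, and Blcap had 46.0 and 44.7 TPM. Slc38a4, a sodium-coupled amino acid transporter known for paternal expression, had 99.9 and 94.7 TPM. Impact, which restrains the kinase GCN2 and is expressed from the paternal allele, had 34.95 and 33.3 TPM. Trappc9, a subunit of a vesicle tethering complex, had 24.2 and 23.9 TPM. Its neighbour Kcnk9, a potassium channel known from brain, had 0 counts in both libraries, which allows up to 0.121 TPM in replicate 1 against 0.0991 TPM in replicate 2.

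Airn, the paternally expressed noncoding RNA that silences Igf2r, had 27.8 TPM in replicate 1 against 29.5 TPM in replicate 2, and Igf2r, which it overlaps, had 39.1 and 38.6 TPM. Although the locus runs over chr17:12741311-12860136, the listed length of Airn was 978 nt in replicate 1 and 936 nt in replicate 2. Its TPM therefore describes short spliced forms, on 545 and 672 counts, and cannot be set beside that of Kcnq1ot1, whose row is the unspliced RNA.

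The parental alleles were compared in 2 ways, over all members and within clusters. Over all members, the median level was 20.9 TPM in replicate 1 against 21.6 TPM in replicate 2 for the 22 paternal genes and 29.8 and 27.0 TPM for the 23 maternal genes, a log2 ratio of -0.41 ± 0.13. Sums were 3683 and 3065 TPM for the paternal genes and 5028 and 4257 TPM for the maternal ones. The maternal group takes in genes whose imprinting is known only from certain tissues, among them Cd81, Tssc4, Ascl2, Ube3a, Trappc9 and Kcnk9. Cd81 alone gave 644 and 568 TPM of the maternal sum, and the allele expressed in limb was not measured. Paternal genes ran between 0.41 and 1696 TPM in replicate 1 and maternal genes between 0 and 1455 TPM in the same library. The difference in medians was small beside the spread in each group, and it moved to -0.75 when genes under a mean of 1 TPM were left out.

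Within clusters, each paternal member was set against each maternal member, which gave 33 pairs that share genes and are not independent. Paternal and maternal here name the allele known from other work, and the allele expressed in limb was not measured for any pair. In 25 pairs the genes differed over 2-fold in the same direction in both libraries. The paternal gene was the higher one in 11 of them and the maternal gene in 14. The largest ratios towards the paternal gene were Sgce over Calcr (7.65 and 8.25 on the log2 scale in replicates 1 and 2), Mest over Copg2 and Peg3 over Zim1 (5.35 and 5.70). The largest towards the maternal gene were Rtl1 over Meg3 (-8.74 and -8.26), Dio3 over Meg3 (-8.85 and -7.78), Kcnq1ot1 over Cdkn1c and Zrsr1 over Commd1 (-7.32 and -7.45). Dlk1 and Meg3, Snrpn and Ube3a (-0.86 and -0.88) and Peg12 and Ube3a (-0.70 and -0.79) stayed within 2-fold in both libraries.

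**Figure D4:**
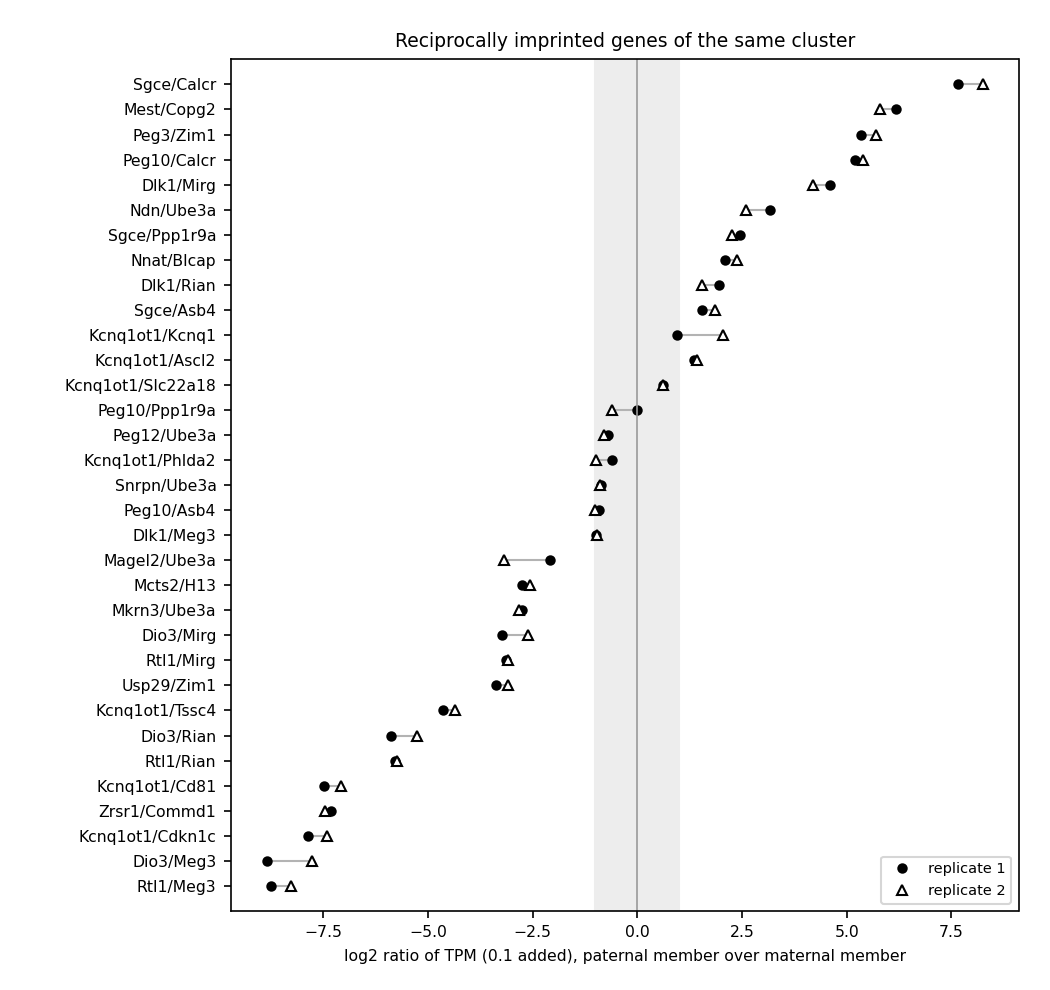
log2 ratio of the TPM of a paternally expressed gene over that of a maternally expressed gene of the same cluster, with 0.1 TPM added to both. Circles are replicate 1 and triangles replicate 2, and the grey band marks ratios within 2-fold. Of the 33 pairs, 11 lie right of the band in both libraries and 14 left of it.

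The replicates were compared on log2(TPM + 0.1) for genes averaging 1 TPM or more, centred on the median gene, a shift of 0.02. This filter kept 43 of the 46 genes and left out Usp29, Calcr and Kcnk9. Of the 43, 5 differed over 1.5-fold (11.6%), beside 8.00% of all 15571 genes tested. Kcnq1, Magel2 and Zim1 were higher in replicate 1 (3 genes, 6.98%, beside 4.87% of all genes), and Nap1l5 and Phlda2 were higher in replicate 2 (2 genes, 4.65%, beside 3.12%). None of the 43 differed over 2-fold, beside 3.63% of all genes (2.47% higher in replicate 1 and 1.16% higher in replicate 2). All 5 had a mean under 10 TPM, and these shares lie near the background. The replicates are single pools, so no test bears on them.

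The median difference of the 43 genes was 0.04 on the log2 scale (replicate 1 minus replicate 2), with quartiles of -0.11 and 0.19, beside a median of 0 and quartiles of -0.14 and 0.13 over all genes tested. With the deposited posterior mean TPM, another estimate of the same level, the median of the members was -0.0072, so its direction turned with the estimate used. In all, 25 were higher in replicate 1 and 18 in replicate 2. Among abundant members, Meg3, Dlk1 and Ndn were the ones furthest towards replicate 1, with log2 differences of 0.56, 0.53 and 0.45, and Nnat was the one furthest towards replicate 2, at -0.28. The paternal genes (12 of 21 higher in replicate 1, median 0.05) and the maternal genes (13 of 21, median 0.04) had similar counts and medians. The sarcomere genes given above moved the same way as Meg3, Dlk1 and Ndn, but by a median of 1.47 on the log2 scale, and the part of muscle content in these 3 values was not tested.

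**Figure D5:**
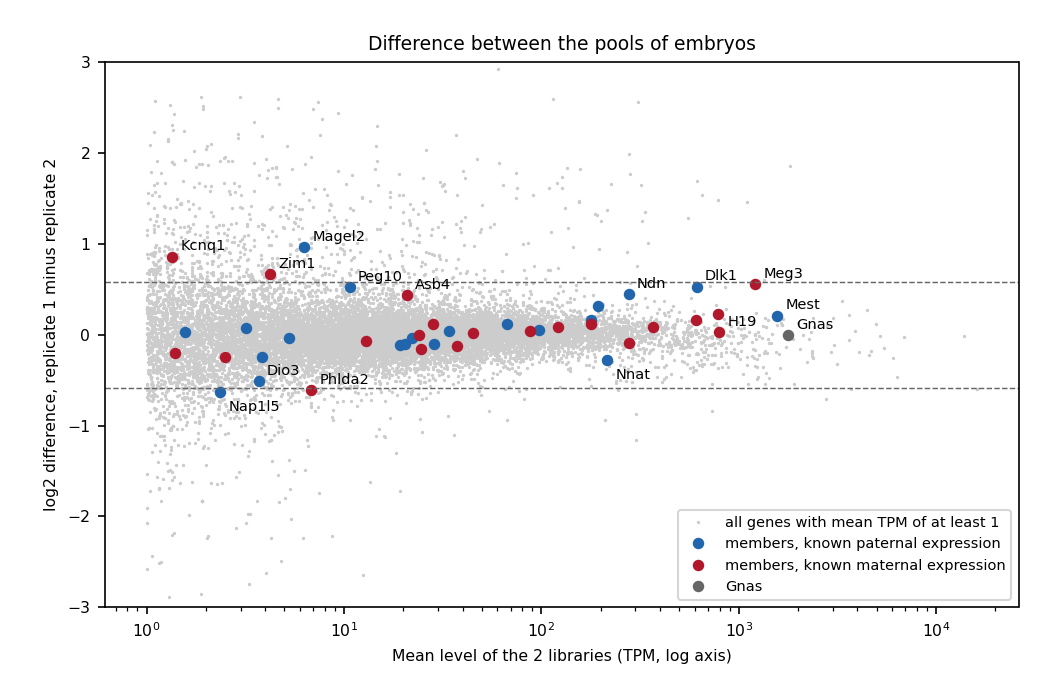
log2 difference between the libraries, replicate 1 minus replicate 2, against the mean level in TPM (log axis). Grey points are all 15571 genes averaging 1 TPM or more, of which 102 lie beyond the axis; coloured points are the 43 imprinted genes, and dashed lines mark 1.5-fold. Kcnq1, Magel2 and Zim1 lie above the upper line and Nap1l5 and Phlda2 below the lower line.

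The genes that set, keep or read imprints were described as a list of 22. Of these, 18 averaged 1 TPM or more and 16 had at least 10 TPM in both libraries. Trim28, the corepressor that zinc finger proteins recruit to imprints, had 161 TPM in replicate 1 against 203 TPM in replicate 2. The DNA methyltransferase Dnmt3a had 110 and 114 TPM, Uhrf1, which guides maintenance methylation, had 91.5 and 88.5 TPM, and the insulator protein Ctcf had 78.7 and 87.8 TPM. Zfp57, the zinc finger protein that binds methylated imprints, had 54.6 and 60.1 TPM (named beyond the rule, after its value was seen). None of the 18 differed over 1.5-fold between the libraries, beside 8.00% of all genes tested, and 16 of the 18 were higher in replicate 2, with a median of -0.10 on the log2 scale.

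Zfp57 is known to bind the hexamer TGCCGC when its CpG is methylated. The word TGCCGC on either strand (TGCCGC or GCGGCA, read as one word) was counted in the RefSeq windows that run from 250 bases before to 50 after a start. Of 53 windows of 37 members, 13 held it (24.5%), beside 3813 of 32851 windows of all genes (11.6%). By gene it was 12 of 37 members (32.4%) and 13.1% of all genes with a window. Member windows also held more CpGs, a median of 15 beside 7 over all windows, and the word itself contains a CpG. A match describes letters in these windows and no binding, and an absent match says nothing of the factor.

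Overlap with other annotated genes was counted in windows of 100 nt of the transcripts. Windows shared between members on the same strand were not counted. Within that limit, 29 of the 46 genes shared no window with another gene on either strand, and 41 shared none on their own strand. Beside the genes named above, the largest overlaps were on the opposite strand. Each share is over all other genes, with the most shared one in brackets. They were 20.3% of Cdkn1c (Gm44732), 19.3% of Mest (Copg2), 15.6% of Gnas (Gm20721), 13.7% of Ube3a (9330162G02Rik) and 7.37% of H13 (Gm26841). Gm20721 had 51.2 TPM in replicate 1 against 34.99 TPM in replicate 2. The levels of these members are uncertain by as much as reads of the other strand were counted for them, which was not tested.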

How the data were processed

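Total RNA of 2 pools of limbs was sequenced. The authors deposited gene and transcript tables for both libraries. Per the file headers these hold expected counts (estimated counts that need not be whole), and the deposited TPM and posterior mean TPM are scaled to length and library. The bounds of the deposited TPM interval are signal values on the same scale that cover counting and read assignment; they surround the posterior mean, not always the TPM. The deposited percent column is the share of a gene held by each transcript. The assembly was mm10 per the labels and the annotation GENCODE M4 per the deposited sample records; the aligner, the counter and the use of strand were not stated in the sources used here.

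Symbols, coordinates and starts came from GENCODE M21 (same build), matched on gene identifier without version, for 42462 of 43346 genes; 26248 numeric rows (under 0.0002% of counts) were left out. Members and lists were chosen with earlier results of these data known. Genes are named if they are members, the 4 highest of another list, or overlap or are related to a member. Levels are means with SD (n = 2). Differences are log2(TPM + 0.1) of replicate 1 minus replicate 2, centred on the median gene of mean TPM of at least 1; over 1.5-fold was called apart. With 1 group no p-value exists. Alternatives were other units, pseudocounts (1), filters (10 TPM), TMM scaling of the rounded expected counts (edgeR 4.0.16, R 4.3.3), spike-in centring and leaving out each library. Python 3.11.15, numpy 2.4.6, pandas 2.3.3 and scipy 1.17.1 were used, and the calling step was tested on simulated data.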

Additional observations from a re-analysis of the deposited data

How the results depend on the processing

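Of 39 alternative values over 6 results, 32 kept their direction and their size within the limits used. The count of genes over 1.5-fold apart, 5, was 1 with a pseudocount of 1, 0 with a filter at a mean of 10 TPM and 0 at a threshold of 2-fold. The median difference of the members, 0.04 on the log2 scale, reversed to -0.0072 with the posterior mean TPM; the cause was not tested. The log2 ratio of the paternal over the maternal median, -0.41, was -0.73 in CPM, which are not divided by length, and -0.75 with a filter at a mean of 1 TPM, an alternative chosen after seeing the data. Of the 24 genes with a leading transcript over 50%, 10 passed at 80%, a stricter limit by construction. Without either replicate, the genes at 1 TPM numbered 42 to 43, the pairs past 2-fold 25 to 27, the paternal over maternal median -0.51 to -0.32 and the leading transcripts 24 to 25. No paired analysis was possible because the series has 1 group.

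Both libraries are deep, but 10 ng of starting RNA and 2 pools limit what differences of low genes show: the 5 members called apart had means under 10 TPM. Whether strand was recorded was not given in the sources used here, so overlapping antisense genes cannot be told apart, and allelic origin was not measured.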

Other observations

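Between Dlk1 and Dio3, 4 rows that are no members also reached a mean of 1 TPM, and they were chosen after their values were seen. Gm26906, on the strand opposite Meg3 and overlapping it by 3096 nt, had 8.19 TPM in replicate 1 against 3.46 TPM in replicate 2, a log2 difference of 1.196, and was the only one of the 10 such rows of the domain over 2-fold apart. Of the windows of Meg3 (1455 and 974 TPM), 5.52% were shared with genes on the opposite strand, most often Gm26906. As the use of strand is not given, reads of Meg3 there cannot be told apart from those of Gm26906, and its difference is uncertain. On the strand of Meg3, Rian and Mirg, Gm37899 had 4.98 and 4.85 TPM, B830012L14Rik had 5.17 and 4.82 TPM, and Gm26945, which overlaps Rian, had 1.31 and 0.94 TPM. These 3 start between the outer annotated starts of Rian and Mirg and were under both in level.

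Other imprinted genes and cluster neighbours were listed as 35 symbols, of which 32 had a row and 26 had a mean TPM of at least 1. The highest were Igf2, the fetal growth factor, with 1202 TPM in replicate 1 against 1044 TPM in replicate 2, the matrix proteoglycan Dcn with 806 and 764 TPM, the histone chaperone Nap1l4 with 163 and 155 TPM, and the lipid transfer protein Osbpl5 with 55.9 and 52.3 TPM. Of the 26, 18 were higher in replicate 1 and 8 in replicate 2, with a median log2 difference of 0.07. Over 1.5-fold apart were 5 of the 26 towards replicate 1 and 1 of the 26 towards replicate 2, beside 4.87% and 3.12% of all genes. The share towards replicate 1 was thus above that of all genes, and the share towards replicate 2 was near it. The 5 towards replicate 1 were Ddc, Zdbf2, Tnfrsf23, Tfpi2 and Cdh15, named after their values were seen. Ddc differed most, with 30.4 TPM in replicate 1 against 14.6 TPM in replicate 2. Cdh15, the cadherin of muscle, had 32.3 and 15.6 TPM. The sarcomere genes summed to 12079 TPM and 3942 TPM in the same libraries, and the part of muscle content in any of these values was not tested.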
